A study of Bos taurus with 18 samples.

Results

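Gene expression was compared between immortalized and senescent cultures of a bovine fibroblast line labelled Simmental-like, in 6 of the 18 RNA-seq libraries of the series. The comparison was chosen by stage and line: 3 libraries labelled immortalized against 3 labelled senescent, with every gene that passed a filter on low counts, 13099 of the 24596 in the table. Per the labels and the series' design text, fibroblasts of Simmental and Holstein cows were grown for a long time, and RNA was sequenced from primary, senescent and immortalized stages of each. The senescent libraries are of the cell line Sn-BF-13 (culture name BDF-20-MultiXray-Ctrl) and the immortalized ones of HUN-BF-13 (BF-13). The primary ones are of PBF-13 (BDF-20-3B-4). They are shown for their levels, and they also entered the filter, the scaling and the spread of the fit. No transgene or drug is named for any of the 3 stages, and the immortalization is described as spontaneous. Each stage is 1 named culture, so stage and culture cannot be told apart. Neither the labels nor the design text state that the 3 stages share an animal or a body site. The labels call the 3 libraries of a stage biological replicates without saying whether they were grown separately, so a p-value here weighs a difference against the spread of 3 libraries per stage, and that spread may be technical.

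Senescent cells have left the cell cycle for good but stay alive and active. They are known for high levels of cyclin-dependent kinase inhibitors, a swollen lysosomal compartment, and a secretory program of chemokines, cytokines, proteases and growth factor binding proteins that is driven largely by the transcription factor NF-kB. Cultures that resume growth after this stage without any added gene are called spontaneously immortalized, and they need replication, lipid and amino acid supply to keep dividing.

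The 6 libraries held between 18215984 and 20672264 counts, so that 3 counts corresponded to 0.145 to 0.165 counts per 1000000 before scaling. Levels below are CPM, counts per 1000000 after TMM scaling. Senescent libraries 1 and 2 were close to each other, with a chi-square per gene of 1.36, where counting noise alone gives a value near 1. The other senescent pairs had 3.49 and 3.96, the immortalized pairs 6.57 to 24.4. The primary pairs, which also enter the spread behind each SE and adjusted p, had 41.8, 190 and 370. All 18 fibroblast markers listed had counts at both stages, among them COL1A1, the main fibrillar collagen, and VIM, the mesenchymal intermediate filament. The 18 summed to 34556 to 34690 CPM in senescent and 51380 to 57465 CPM in immortalized libraries. Most of this sum came from COL1A1, COL1A2 and VIM. PI16 held 5 counts over the senescent and 1 over the immortalized libraries, and DPP4 held 13 and 4. Markers of other cells ranged widely: 15 endothelial genes summed to 11.8 to 13.9 CPM in senescent and 4.62 to 5.55 CPM in immortalized libraries, 12 immune genes to 31.2 to 34.6 and 7.91 to 12.6 CPM, and 11 epithelial genes to 1.5 to 2.76 and 1.29 to 2.16 CPM. Higher sums came from 12 pericyte and smooth muscle genes, at 676 to 708 and 400 to 407 CPM, and 15 cartilage and bone genes, at 1020 to 1066 and 1173 to 1383 CPM. In the latter list SPP1, the osteopontin gene, alone stood at 979, 964 and 1013 and 1103, 1207 and 1322 CPM (log2 change 0.30 ± 0.15, adjusted p = 0.171, not passing), while MEPE, of bone cells, had 0 counts at both stages. In a bulk library, fewer cells of a type and less RNA per cell cannot be told apart.

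Both directions were about equally common, but the losses were deeper. A gene was called where its adjusted p (edgeR's quasi-likelihood test, Benjamini-Hochberg) lay under 0.05: 4249 genes or 32.4% passed, 2146 (16.4%) higher and 2103 (16.1%) lower in immortalized libraries. The median log2 change, immortalized minus senescent, was 0.81 among the higher genes and -1.07 among the lower ones. At a log2 change of at least 3 there were 111 higher and 304 lower genes. The values of the 2 stages did not overlap in 70.9% of all tested genes, called or not. Under scaling by total counts the split moved from 50.5% to 35.8% of called genes higher (1505 higher and 2698 lower), with a shift of -0.16 in the median of all genes. The fit used all 9 Simmental-like libraries for the filter, the scaling and the spread between libraries. Scatter among primary libraries thus enters whether a gene passed. Values of the 2 stages did not overlap in 5045 genes that did not pass, and a fit of the 6 libraries alone called 8600 genes. Without primary library 1, which stood apart from the other primary libraries, 7793 genes passed, and with senescent libraries 1 and 2 summed into 1 library 2970 passed. Of the 4249 calls, 2611 held in each of the 9 fits that left out 1 library, and they are called the stable calls below. In every called gene given with its values below, the values of the senescent and immortalized libraries did not overlap.

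**Figure D1:**
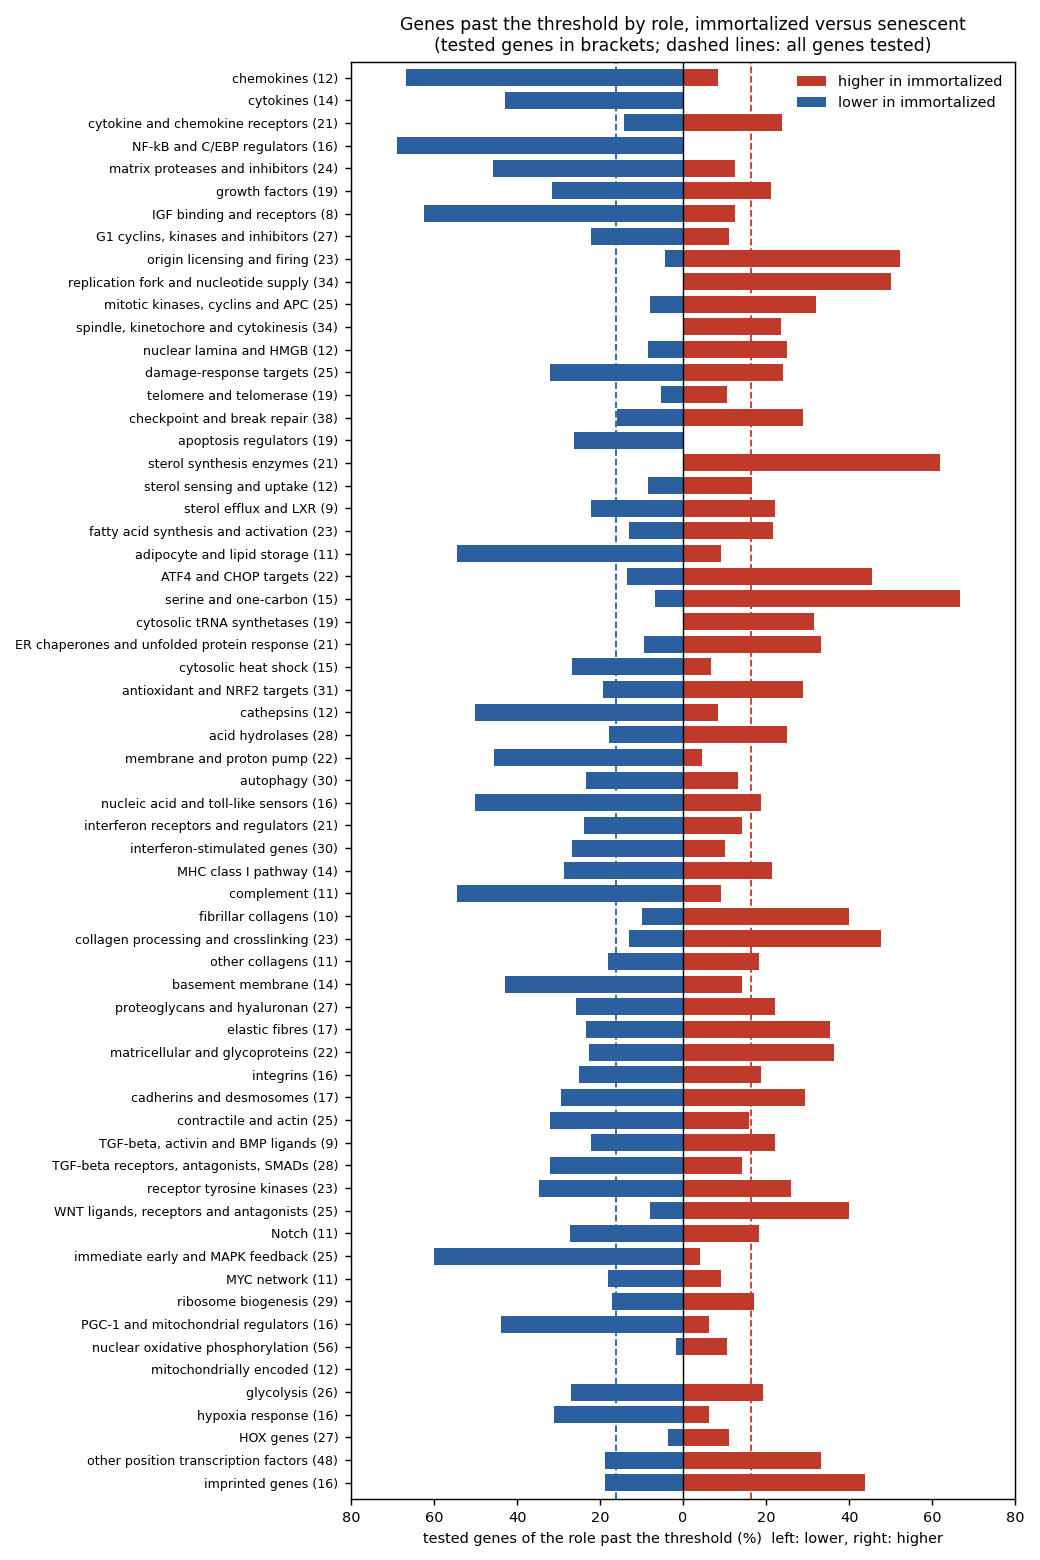
Each bar gives the percentage of a role's tested genes past the threshold, to the right for higher and to the left for lower in immortalized libraries. Tested genes are in brackets, and dashed lines mark the 16.4% and 16.1% over all genes. Chemokines, NF-kB regulators and immediate early genes lie far to the left, and sterol synthesis, serine metabolism and replication to the right.

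Of 1641 symbols listed under 72 roles, 1529 were found and 1335 genes were tested, with 299 higher and 299 lower. The roles differed widely around this even split, as the bar plot of roles shows. Each count of a role below is to be read against 16.4% higher and 16.1% lower over all genes.

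Chemokines, secreted proteins that attract leukocytes, had the lowest median of the 72 roles. Here 8 of 12 tested genes were lower and 1 was higher, with a median log2 change of -3.62 against 0.00 over all genes. Their summed level went from 1338 to 1358 CPM in senescent to 281 to 311 CPM in immortalized libraries. CXCL6, a neutrophil attractant, stood at 769, 781 and 737 CPM in the senescent and at 8.71, 9.34 and 8.64 CPM in the immortalized libraries (log2 change -6.42 ± 0.17, adjusted p = 4.6e-07). All 3 immortalized libraries were far below all senescent ones, and primary libraries lay between them at 78.2, 107 and 110 CPM. GRO1, of the same family, went from 102, 95.8 and 104 to 2.23, 2.44 and 2.6 CPM (log2 change -5.37 ± 0.38, adjusted p = 2.8e-05). CXCL3 went from 63.7, 62.2 and 67 to 4.36, 4.94 and 4.47 CPM (log2 change -3.81 ± 0.30, adjusted p = 5.1e-05). Both groups were again tight and far apart. Genes of this family are similar in sequence, so reads may have been shared among some of them. CCL5, a T cell attractant, fell from 3.22, 2.86 and 4.41 to 0.319, 0.288 and 0.344 CPM (log2 change -3.44 ± 0.50, adjusted p = 0.00115). CCL20 was down to 3 counts over the immortalized libraries, a ratio of 34.5 (95% counting interval 11.5 to 170). The 1 chemokine that rose was CXCL12, a stromal factor that holds stem and progenitor cells in place. It went from 168, 170 and 170 to 219, 227 and 238 CPM (log2 change 0.43 ± 0.09, adjusted p = 0.00859), but under scaling by total counts its log2 change was 0.27 and its adjusted p 0.185. Its level in primary libraries was 185, 203 and 226 CPM. CXCL16 did not pass (log2 change 0.09 ± 0.15, adjusted p = 0.7).

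CXCL8, CXCL3 and GRO1 are next to each other among the tested genes in the gene order of the RefSeq assembly ARS-UCD2.0, and the genes around them did not all share their change. On one side ANKRD17 had a log2 change of -0.40 (adjusted p = 0.0968), and on the other MTHFD2L had -0.53 (adjusted p = 0.18). Beyond MTHFD2L lay 2 growth factors of the EGF family that were lower, EREG at -2.26 (adjusted p = 0.0173) and AREG at -1.68 (adjusted p = 0.00198). The call of EREG was lost when single libraries were left out. IL1A and its neighbour IL36A were also both lower, at -3.69 and -2.70, while IL1RN, placed next to IL36A, stood at -0.48 (adjusted p = 0.281).

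Among cytokines, 6 of 14 tested genes were lower and 0 higher (median -0.66). For the cytokines, and for the other roles given with 0 members in a direction, 0 members lay on that side at an unadjusted p under 0.05 in edgeR and 0 were called by DESeq2 or limma-voom, with lower spindle genes as the exception. IL1A, an alarm cytokine that is held to start the secretory program, stood at 11.2, 9.7 and 11.5 CPM in the senescent and at 0.691, 0.958 and 0.835 CPM in the immortalized libraries (log2 change -3.69 ± 0.25, adjusted p = 2.2e-05). In primary libraries it was nearly absent, at a mean of 0.0227 CPM. LIF and IL15 were lower too (log2 change -1.84 ± 0.32, adjusted p = 0.00281 and log2 change -2.15 ± 0.39, adjusted p = 0.00349). MIF, a constitutively made cytokine, and CSF1, the macrophage growth factor, did not pass (log2 change 0.24 ± 0.38, adjusted p = 0.666 and log2 change -0.80 ± 0.32, adjusted p = 0.0904). The receptors of such ligands were mixed, with 5 of 21 higher (23.8%) and 3 lower (14.3%), against 16.4% and 16.1% over all genes. Their median of 0.07 turned to -0.09 under scaling by total counts. OSMR, the oncostatin M receptor, rose from 13, 13.2 and 11.6 to 61.7, 54.6 and 50.1 CPM (log2 change 2.14 ± 0.12, adjusted p = 8.6e-06). Primary libraries held 51.8, 58.9 and 53.7 CPM, in the range of the immortalized ones. CNTFR, a receptor that binds ciliary neurotrophic factor, rose from 0.544, 0.635 and 0.579 to 11.2, 12.5 and 13.3 CPM (log2 change 4.38 ± 0.32, adjusted p = 3.4e-05). TNFRSF1B, a receptor of tumour necrosis factor, fell from 13.9, 13.3 and 12.1 to 2.92, 2.01 and 1.87 CPM (log2 change -2.53 ± 0.31, adjusted p = 0.000458). IL1RL1, the receptor of interleukin 33, fell from 23.3, 24.5 and 22.2 to 5.79, 5.32 and 4.57 CPM (log2 change -2.16 ± 0.35, adjusted p = 0.00188).

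The regulators of NF-kB, many of which are its own targets, moved the same way: 11 of 16 were lower and 0 higher (median -0.69), 8 of them stable calls. TNFAIP3, the A20 protein that shuts the pathway off and is induced by it, stood at 41.7, 40.3 and 37.2 CPM in the senescent and at 4.78, 4.07 and 3.49 CPM in the immortalized libraries (log2 change -3.27 ± 0.28, adjusted p = 7.0e-05). RELB, a subunit of the noncanonical arm, fell from 62.2, 59.9 and 67.4 to 15.2, 15.4 and 13.3 CPM (log2 change -2.11 ± 0.16, adjusted p = 3.8e-05). NFKB2, the precursor of its partner, fell from 114, 115 and 117 to 42.5, 40.3 and 39.7 CPM (log2 change -1.50 ± 0.19, adjusted p = 0.000547). BIRC3, an apoptosis inhibitor in the receptor complex, fell from 220, 227 and 218 to 75.2, 69.9 and 70.8 CPM (log2 change -1.62 ± 0.09, adjusted p = 6.9e-06). The canonical subunit RELA did not pass: it stood at 145, 141 and 148 and 129, 120 and 126 CPM (log2 change -0.21 ± 0.08, adjusted p = 0.0785). NFKB1, the other canonical subunit, was lower (log2 change -0.87 ± 0.08, adjusted p = 0.000128).

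**Figure D2:**
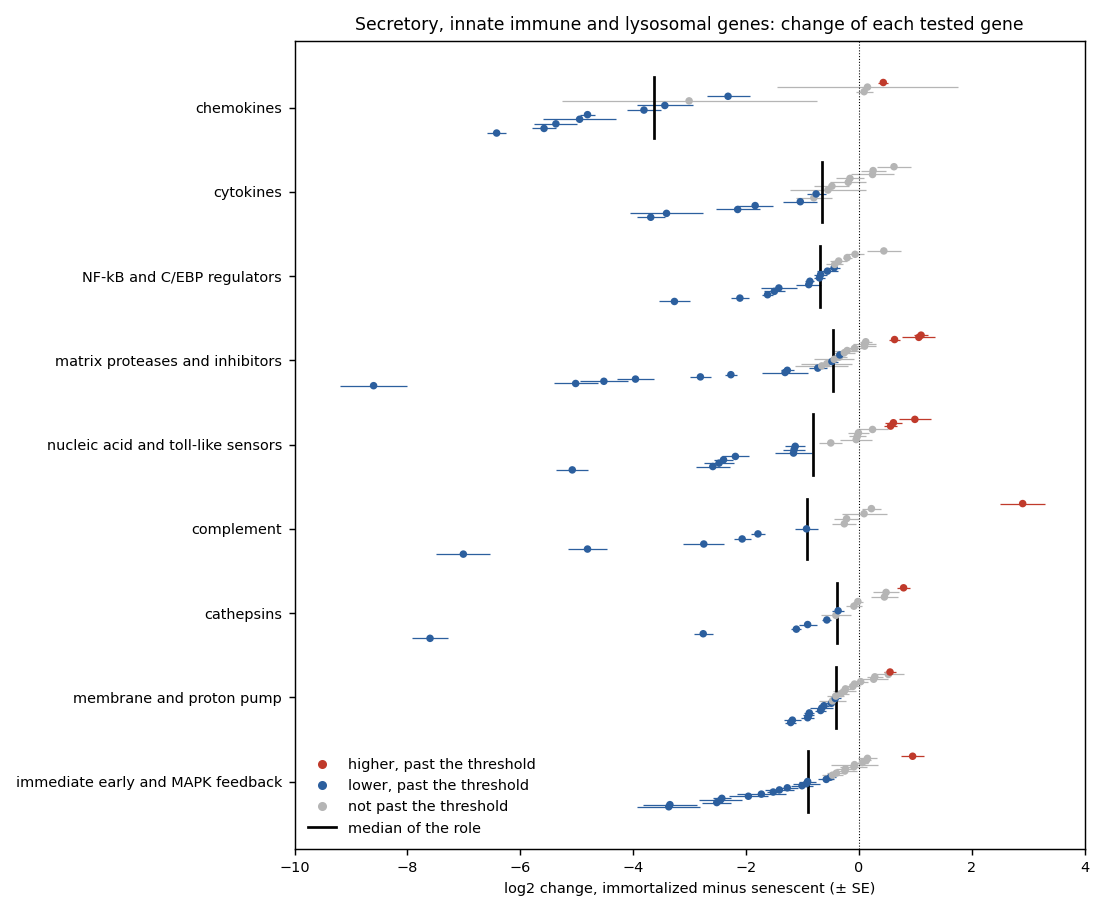
Log2 change (immortalized minus senescent, x axis) of each tested gene of 9 roles, with SE as horizontal lines and the median of a role as a black bar. All 9 medians lie below 0, from -3.62 for chemokines to -0.39 for cathepsins, and most roles hold genes on both sides.

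Matrix proteases and their inhibitors had 11 of 24 genes lower and 3 higher (median -0.46). MMP9, a gelatinase, held 609 counts over the senescent and 1 over the immortalized libraries, a ratio of 535 (95.6 to 21151). ADAMTS5, an aggrecanase, stood at 39.8, 40.8 and 39.3 CPM in the senescent and at 2.02, 1.58 and 1.62 CPM in the immortalized libraries (log2 change -4.52 ± 0.42, adjusted p = 0.000114). ADAMTS12 fell from 7.15, 6.67 and 6.24 to 0.159, 0.24 and 0.196 CPM (log2 change -5.02 ± 0.39, adjusted p = 4.4e-05). MMP2, the other gelatinase, fell from 4561, 4641 and 4748 to 2786, 2762 and 2867 CPM (log2 change -0.73 ± 0.16, adjusted p = 0.00919). TIMP2 did not pass (log2 change -0.08 ± 0.15, adjusted p = 0.713).

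Growth factors were mixed, with 4 of 19 higher and 6 lower (median -0.21). FGF2, a fibroblast mitogen, stood at 94.4, 97.5 and 84.2 CPM in the senescent and at 6.16, 5.08 and 5.6 CPM in the immortalized libraries (log2 change -4.04 ± 0.13, adjusted p = 9.3e-07), against 55.9, 61.8 and 61.2 CPM in primary ones. KITLG, the ligand of the receptor KIT, fell from 31, 31.7 and 25.7 to 1.38, 0.91 and 0.442 CPM (log2 change -5.02 ± 0.80, adjusted p = 0.00177). PDGFA, a platelet-derived growth factor chain, rose from 6.44, 7.39 and 6.1 to 14.7, 16.5 and 17.9 CPM (log2 change 1.30 ± 0.18, adjusted p = 0.000739), and VEGFC, a lymphatic growth factor, from 98.5, 94.3 and 95.4 to 159, 162 and 170 CPM (log2 change 0.77 ± 0.15, adjusted p = 0.00473). Of 8 genes for insulin-like growth factor binding proteins and receptors 5 were lower and 1 was higher. IGFBP3 fell from 226, 217 and 223 to 30.7, 30.4 and 29.6 CPM (log2 change -2.88 ± 0.28, adjusted p = 0.000151), and IGFBP5 from 33.6, 33.5 and 33.7 to 11.2, 9.63 and 6.83 CPM (log2 change -1.87 ± 0.22, adjusted p = 0.000404). IGFBP7, often listed among senescence factors, rose from 202, 199 and 204 to 457, 518 and 569 CPM (log2 change 1.35 ± 0.17, adjusted p = 0.000602) and stood at a mean of 6.33 CPM in primary libraries.

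Sensors and effectors of innate immunity were also lower on balance. Of 16 nucleic acid and toll-like sensors 8 were lower and 3 higher (median -0.82). CD14, a coreceptor for bacterial lipopolysaccharide, stood at 5.44, 5.99 and 4.37 CPM in the senescent and at 0.106, 0.144 and 0.196 CPM in the immortalized libraries (log2 change -5.08 ± 0.28, adjusted p = 8.5e-06). IFIH1, a sensor of double-stranded RNA, fell from 11.3, 9.3 and 10.2 to 1.7, 1.77 and 2.01 CPM (log2 change -2.48 ± 0.26, adjusted p = 0.000214). NLRP3, the core of an inflammasome, fell from 15.5, 14.9 and 14.7 to 2.39, 3.31 and 2.85 CPM (log2 change -2.40 ± 0.17, adjusted p = 2.3e-05). MYD88, the adaptor of toll-like receptors, was higher (log2 change 0.56 ± 0.12, adjusted p = 0.00773), and MAVS, the adaptor of RNA sensors, did not pass (log2 change -0.05 ± 0.28, adjusted p = 0.913). CD14 is also a monocyte marker, and LCP1, a leukocyte actin bundler, fell with it, from 17, 20 and 19.4 to 0.266, 0.144 and 0.295 CPM (log2 change -6.30 ± 0.23, adjusted p = 1.8e-06). Of the 6 immune markers tested CD14 and LCP1 were the 2 that passed, and 1 of the 12 listed had 0 counts at each stage. The other tested ones, CSF1R, CD68, CD163 and FCER1G, had log2 changes of 0.26, 0.05, 0.40 and 0.18 and did not pass. PTPRC, also listed, had 4 counts over the senescent and 5 over the immortalized libraries. The part of blood cells in these values was not tested.

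Interferon genes fell in part. Of 30 interferon-stimulated genes 8 were lower and 3 higher (median -0.28). Their regulators IRF7 and IRF1 were lower. IRF7 stood at 16, 15.1 and 17.1 CPM in the senescent and at 1.01, 0.91 and 0.982 CPM in the immortalized libraries (log2 change -4.05 ± 0.41, adjusted p = 0.000174), and IRF1 at 96.2, 97.1 and 99.1 and 41.5, 46 and 49.7 CPM (log2 change -1.09 ± 0.10, adjusted p = 0.000121). PARP12, an antiviral ADP-ribosyltransferase, fell from 21.6, 19.8 and 20.5 to 0.159, 0.288 and 0.638 CPM (log2 change -5.80 ± 0.32, adjusted p = 9.1e-06). Class I antigen presentation was split. The heavy chain genes BOLA and JSP.1 fell, from 332, 327 and 344 to 126, 132 and 142 CPM (log2 change -1.32 ± 0.18, adjusted p = 0.000756) and from 223, 215 and 227 to 61.8, 66 and 69 CPM (log2 change -1.76 ± 0.13, adjusted p = 3.3e-05), although such genes have near-identical copies and reads may have been shared. PSMB8, an immunoproteasome subunit, and the peptide transporter gene TAP2 rose (log2 change 1.01 ± 0.20, adjusted p = 0.00552 and log2 change 0.62 ± 0.11, adjusted p = 0.00279). B2M, the common light chain, did not pass (log2 change -0.14 ± 0.10, adjusted p = 0.328).

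Complement genes had 6 of 11 lower and 1 higher (median -0.93). C1S, a protease of the classical pathway, fell from 27.7, 31.9 and 30 to 7.49, 7.43 and 6.43 CPM (log2 change -2.07 ± 0.15, adjusted p = 3.1e-05). SERPING1, the C1 inhibitor, rose from 1.05, 0.726 and 1.29 to 7.33, 7.19 and 8.5 CPM (log2 change 2.90 ± 0.40, adjusted p = 0.00088). C3, the central component, stood at 7.78, 8.21 and 8.82 and 9.67, 8.96 and 10.2 CPM and did not pass (log2 change 0.22 ± 0.17, adjusted p = 0.371).

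Lysosomal membrane genes that passed were mostly lower, and acid hydrolases went both ways. Of 22 genes of the lysosomal membrane and its proton pump 10 were lower, 8 of them stable calls, and 1 was higher (median -0.42). LAMP2, a main membrane glycoprotein, stood at 457, 443 and 454 CPM in the senescent and at 192, 201 and 193 CPM in the immortalized libraries (log2 change -1.21 ± 0.10, adjusted p = 4.9e-05). LAMP1 fell from 451, 452 and 467 to 273, 236 and 229 CPM (log2 change -0.89 ± 0.10, adjusted p = 0.000292), and MCOLN1, a calcium channel, from 43.4, 42.2 and 42.9 to 19.5, 18.8 and 18.3 CPM (log2 change -1.18 ± 0.15, adjusted p = 0.000477). Of 12 cathepsin genes 6 were lower and 1 was higher, and their summed level went from 2533 to 2638 CPM in senescent to 1736 to 1845 CPM in immortalized libraries. In primary libraries this sum was highest, at 3759, 3846 and 4158 CPM. CTSZ, a carboxypeptidase, went from 21.6, 24.9 and 24.7 to 0.0531, 0.144 and 0.147 CPM (log2 change -7.60 ± 0.32, adjusted p = 3.0e-06), although primary libraries held a mean of 316 CPM. CTSK, the collagen-degrading cathepsin of fibroblasts and osteoclasts, fell from 1149, 1139 and 1173 to 610, 623 and 609 CPM (log2 change -0.91 ± 0.16, adjusted p = 0.00299). Acid hydrolases had 7 of 28 higher and 5 lower (7 lower and 3 higher under scaling by total counts, where the median turned from 0.09 to -0.08). GLB1, which encodes the beta-galactosidase stained in senescent cells, rose from 202, 195 and 207 to 365, 379 and 387 CPM (log2 change 0.90 ± 0.10, adjusted p = 0.000205). PSAP, the precursor of the saposins that aid lipid breakdown, fell from 1947, 1963 and 1975 to 866, 875 and 861 CPM (log2 change -1.18 ± 0.12, adjusted p = 0.000159).

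Among 30 autophagy genes 7 were lower and 4 higher (median -0.21). SQSTM1, the p62 cargo receptor, stood at 1014, 1017 and 1049 CPM in the senescent and at 255, 266 and 276 CPM in the immortalized libraries (log2 change -1.95 ± 0.10, adjusted p = 6.5e-06). GABARAPL1, an ATG8 family protein, fell from 58.4, 52.5 and 59.2 to 20.8, 18.6 and 18.2 CPM (log2 change -1.56 ± 0.11, adjusted p = 2.3e-05). GPNMB, a glycoprotein of stressed lysosomes, fell from 231, 231 and 237 to 40.7, 41.3 and 41.8 CPM (log2 change -2.50 ± 0.13, adjusted p = 6.9e-06). TFEB, the transcription factor that drives lysosomal genes, rose instead, from 6.94, 6.53 and 7.31 to 21.5, 24.2 and 26.8 CPM (log2 change 1.80 ± 0.13, adjusted p = 3.1e-05). MAP1LC3B did not pass (log2 change 0.20 ± 0.15, adjusted p = 0.344).

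Immediate early genes and the feedback inhibitors of the MAPK pathway formed another broad loss: 15 of 25 were lower, 13 of them stable calls, and 1 was higher (median -0.91). JUNB, an AP-1 subunit, stood at 205, 204 and 217 CPM in the senescent and at 67.4, 77 and 90.8 CPM in the immortalized libraries (log2 change -1.41 ± 0.26, adjusted p = 0.00356). FOSL1, another AP-1 subunit, fell from 129, 132 and 127 to 70.8, 63.2 and 59.7 CPM (log2 change -1.01 ± 0.20, adjusted p = 0.00495). DUSP6, the phosphatase that reverses ERK activation, fell from 49.3, 48.7 and 51.6 to 16.5, 16.3 and 19.3 CPM (log2 change -1.52 ± 0.11, adjusted p = 2.3e-05), and SPRY4, an inhibitor of receptor signalling, from 14.8, 17.1 and 14.7 to 4.46, 4.17 and 3.39 CPM (log2 change -1.96 ± 0.35, adjusted p = 0.0034). The gene that rose was DUSP1, from 129, 131 and 140 to 243, 252 and 278 CPM (log2 change 0.95 ± 0.21, adjusted p = 0.00963). JUN, EGR1 and FOS did not pass, with log2 changes of 0.06, 0.13 and -0.09.

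**Figure D3:**
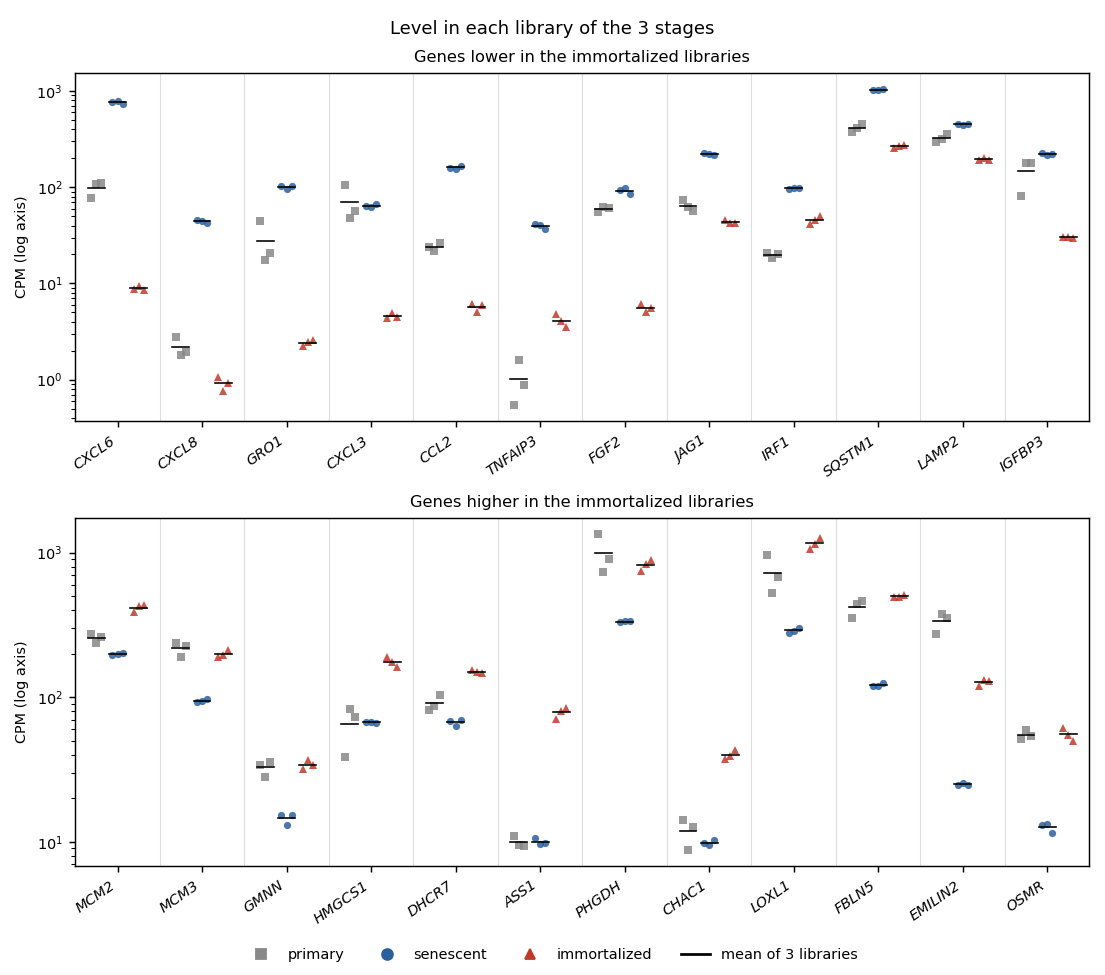
CPM on a log axis in each of the 3 primary (grey squares), 3 senescent (blue circles) and 3 immortalized (red triangles) libraries, with the mean of a stage as a black line. Senescent and immortalized points do not overlap for any of the 24 genes drawn. Primary levels lie above, between or below them, depending on the gene.

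Replication genes that passed were nearly all higher in the immortalized libraries. The senescent libraries were not free of such transcripts: MKI67, the standard proliferation marker, stood at 372, 365 and 335 CPM in senescent, 474, 392 and 360 CPM in immortalized and 131, 397 and 268 CPM in primary libraries, and it did not pass (log2 change 0.19 ± 0.33, adjusted p = 0.691). TOP2A, a topoisomerase of dividing cells, did not pass either, at 354, 355 and 333 and 452, 453 and 387 CPM (log2 change 0.31 ± 0.19, adjusted p = 0.253). Of 23 genes of origin licensing and firing 12 were higher, 8 of them stable calls, and 1 was lower (median 0.29). MCM2 and MCM3, subunits of the replicative helicase, stood at 195, 198 and 201 and 93.4, 93.6 and 96.6 CPM in the senescent libraries. In the immortalized ones they stood at 387, 424 and 431 and 191, 197 and 213 CPM (log2 change 1.07 ± 0.09, adjusted p = 6.5e-05 and log2 change 1.08 ± 0.10, adjusted p = 0.000118). MCM6, of the same helicase, did not pass (log2 change 0.22 ± 0.27, adjusted p = 0.574). GMNN, the geminin that blocks relicensing, rose from 15.4, 13 and 15.3 to 31.7, 36.8 and 33.8 CPM (log2 change 1.23 ± 0.13, adjusted p = 0.00023). Of 34 genes of the fork and of nucleotide supply 17 were higher, 12 of them stable calls, and 0 lower (median 0.41). DUT, which clears dUTP, rose from 96.9, 93.3 and 97.6 to 217, 245 and 265 CPM (log2 change 1.34 ± 0.30, adjusted p = 0.0102). TK1 and TYMS, both of thymidylate supply, rose as well (log2 change 0.99 ± 0.16, adjusted p = 0.00181 and log2 change 0.94 ± 0.09, adjusted p = 0.000138). RRM1, the large subunit of ribonucleotide reductase, overlapped between the stages and did not pass (log2 change 0.26 ± 0.11, adjusted p = 0.113).

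Mitotic genes that passed were mostly higher too. Of 25 mitotic kinases, cyclins and regulators of the anaphase-promoting complex 8 were higher and 2 lower, and of 34 spindle, kinetochore and cytokinesis genes 8 were higher and 0 lower (1 at an unadjusted p under 0.05 and by DESeq2, 0 by limma-voom). The medians were 0.22 and 0.25. Stable calls were 5 and 5 of the higher ones. Without the genes of the shifted chromosomes named further below, 6 of 21 and 4 of 27 were higher, against 16.4% over all genes. BUB1B, a spindle checkpoint kinase, stood at 113, 120 and 117 CPM in the senescent and at 232, 231 and 228 CPM in the immortalized libraries (log2 change 0.98 ± 0.09, adjusted p = 0.000106). CCNB2, a mitotic cyclin, rose from 65.2, 65.6 and 67 to 121, 135 and 143 CPM (log2 change 1.01 ± 0.19, adjusted p = 0.00446), and DLGAP5, a spindle assembly factor, from 84.5, 83.6 and 83.9 to 181, 191 and 183 CPM (log2 change 1.14 ± 0.24, adjusted p = 0.00662). CDC20 and MYBL2 overlapped between the stages and did not pass (log2 change 0.10 ± 0.17, adjusted p = 0.688 and log2 change -0.07 ± 0.15, adjusted p = 0.746). CDC25C, the phosphatase that triggers mitotic entry, was lower (log2 change -0.57 ± 0.12, adjusted p = 0.00754).

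**Figure D4:**
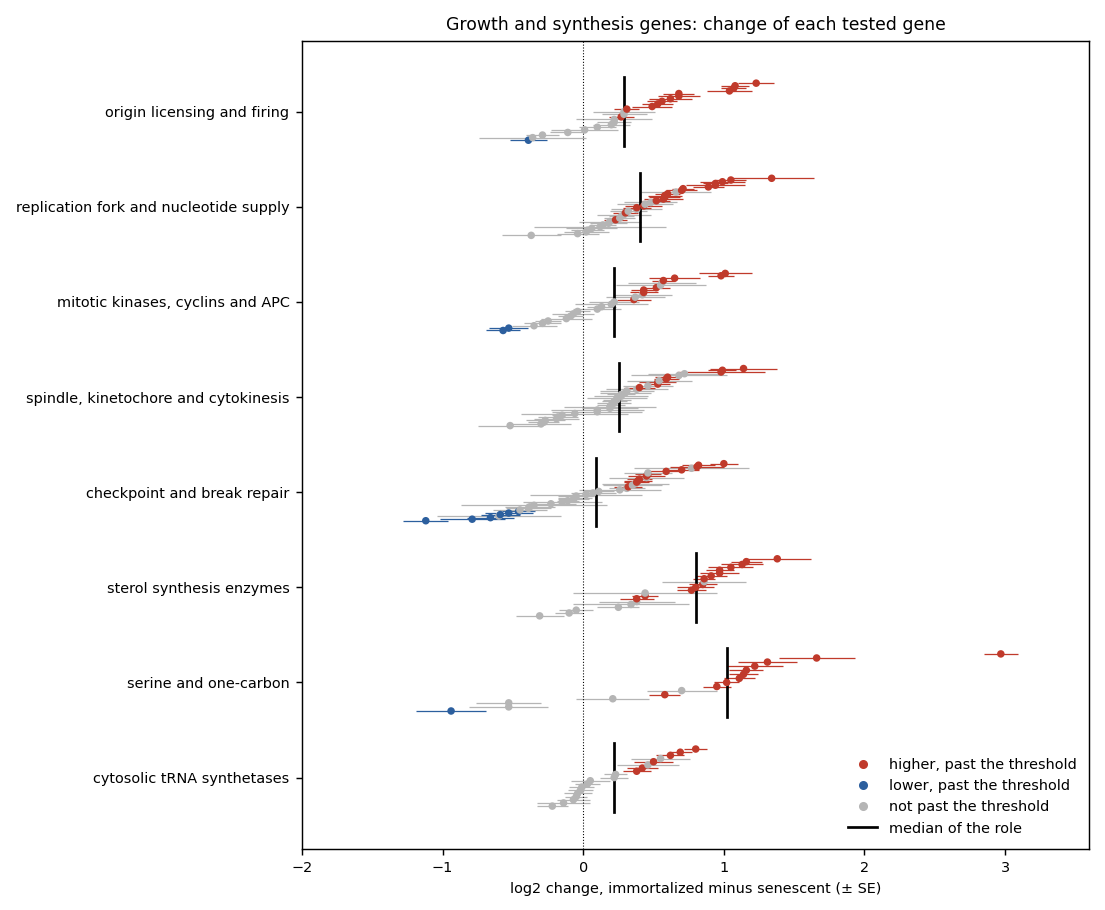
Log2 change (immortalized minus senescent, x axis) of each tested gene of 8 roles, with SE as horizontal lines and the median of a role as a black bar. Replication, sterol and serine genes lie mostly to the right of 0, with medians of 0.29 to 1.02, and repair genes lie on both sides.

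Genes that act at the G1 gate did not move one way: 3 of 27 were higher and 6 lower (median -0.05). CCND2, a D-type cyclin that starts G1 progression, rose from 31.2, 29.3 and 29 to 63.1, 63.7 and 73.2 CPM (log2 change 1.16 ± 0.15, adjusted p = 0.000596). CDKN2A, which encodes the inhibitor p16, was not lost: it stood at 56.3, 55.9 and 56 CPM in the senescent and at 125, 140 and 147 CPM in the immortalized libraries (log2 change 1.29 ± 0.30, adjusted p = 0.012). These are counts of the whole gene, which do not tell its transcripts apart. CDKN2B, the neighbouring inhibitor gene, did not pass (log2 change 0.17 ± 0.14, adjusted p = 0.392), and neither did KLHL9, placed on the other side of CDKN2A (log2 change 0.05 ± 0.33, adjusted p = 0.926). RBL2, the p130 pocket protein that holds cells in quiescence, fell from 117, 113 and 119 to 54.3, 55.4 and 52.1 CPM (log2 change -1.11 ± 0.12, adjusted p = 0.00021). CDKN2D and CDKN1A, further inhibitors of cyclin-dependent kinases, were lower (log2 change -0.91 ± 0.18, adjusted p = 0.00595 and log2 change -0.76 ± 0.11, adjusted p = 0.000998). CDKN1A had its highest values in primary libraries, 179, 210 and 228 CPM. It stood at 103, 107 and 105 CPM in senescent and at 66.6, 61.9 and 58 CPM in immortalized ones. CDKN1A is also induced by DNA damage, and of 25 damage-response targets 6 were higher and 8 lower (median -0.04). BTG2, an antiproliferative gene of that list, fell from 6.48, 4.94 and 6.46 to 1.91, 1.68 and 1.72 CPM (log2 change -1.75 ± 0.18, adjusted p = 0.000172), while CCNG1 rose from 167, 163 and 164 to 300, 304 and 289 CPM (log2 change 0.85 ± 0.12, adjusted p = 0.00097). BAX did not pass (log2 change 0.15 ± 0.29, adjusted p = 0.728).

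Telomere genes had shares below the background in both directions, with 2 of 19 higher and 1 lower (0 and 2 under scaling by total counts, where the median turned from 0.13 to -0.03). The stable call was PARN, a nuclease that matures the telomerase RNA, which fell from 41.7, 41.8 and 40.8 to 26.2, 23.6 and 22.5 CPM (log2 change -0.78 ± 0.13, adjusted p = 0.00201). TERT, the catalytic subunit of telomerase, had 0 counts in primary, 2 in senescent and 2 in immortalized libraries and was not tested. DKC1, of the same enzyme, did not pass (log2 change 0.16 ± 0.17, adjusted p = 0.493). Of 38 checkpoint and break repair genes 11 were higher and 6 lower, and scaling by total counts gave 3 and 7. RAD50 did not pass (log2 change -0.11 ± 0.08, adjusted p = 0.336). Apoptosis regulators had 5 of 19 lower and 0 higher (median -0.20), among them BCL2L11, a pro-apoptotic gene, and BCL2L1, an anti-apoptotic one (log2 change -1.44 ± 0.26, adjusted p = 0.0034 and log2 change -0.64 ± 0.12, adjusted p = 0.0034).

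Sterol synthesis genes were higher as a group. Of 21 enzymes 13 were higher, 12 of them stable calls, and 0 lower (median 0.80). Their summed level went from 982 to 991 CPM in senescent to 1636 to 1691 CPM in immortalized libraries. HMGCS1, an early enzyme of the pathway, stood at 67.8, 67.8 and 66.6 CPM in the senescent and at 191, 174 and 163 CPM in the immortalized libraries (log2 change 1.38 ± 0.24, adjusted p = 0.00311). IDI1, an isomerase of the middle part, rose from 32, 31.3 and 33.1 to 67, 72.7 and 70.9 CPM (log2 change 1.13 ± 0.15, adjusted p = 0.000692). DHCR7, which makes cholesterol in the last step, rose from 68.3, 63.4 and 69.3 to 153, 149 and 147 CPM (log2 change 1.16 ± 0.11, adjusted p = 9.5e-05). FDFT1, SQLE, CYP51A1 and LSS, which carry farnesyl units to the first sterols, rose by log2 changes of 1.05, 0.86, 0.91 and 0.77.

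The sensors of this pathway did not follow as a group, with 2 of 12 higher and 1 lower, and a median that turned from 0.08 to -0.09 under scaling by total counts. INSIG1, a sterol-responsive brake on the pathway, rose from 25, 25.2 and 26.9 to 56.6, 57 and 61.7 CPM (log2 change 1.19 ± 0.11, adjusted p = 9.8e-05). SCAP, the escort of the sterol-sensing transcription factors, rose from 158, 154 and 164 to 310, 310 and 314 CPM (log2 change 0.97 ± 0.09, adjusted p = 8.2e-05). MYLIP, which degrades lipoprotein receptors, fell from 20.5, 20.8 and 19.4 to 7.28, 6.09 and 6.34 CPM (log2 change -1.62 ± 0.18, adjusted p = 0.000264). ABCA1, the cholesterol export pump, fell from 17.5, 13.9 and 12.1 to 1.43, 1.29 and 0.835 CPM (log2 change -3.61 ± 0.56, adjusted p = 0.00157). NR1H3, which encodes LXR alpha and drives ABCA1 transcription, rose from 14.4, 15.4 and 16.6 to 37, 37.2 and 42.7 CPM (log2 change 1.33 ± 0.13, adjusted p = 0.00015).

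Fatty acid genes did not shift as a group: 5 of 23 were higher and 3 lower, and the median turned from 0.11 to -0.06 under scaling by total counts. ACSS3, a mitochondrial short-chain acyl-CoA synthetase and one of the 12 higher genes with the largest change, rose from 0.167, 0.272 and 0.0445 to 27.1, 24.9 and 20.7 CPM (log2 change 7.18 ± 0.49, adjusted p = 2.5e-05). FADS2, a fatty acid desaturase, fell from 2.09, 1.5 and 2 to 0.319, 0.192 and 0.147 CPM (log2 change -3.07 ± 0.30, adjusted p = 0.000131). Adipocyte and lipid storage genes were lower, 6 of 11 with 1 higher (median -2.06). The fatty acid binding protein genes FABP4 and FABP5, next to each other among the tested genes in the gene order, stood at 27.6, 26.4 and 27 and 24.7, 23.6 and 27.1 CPM in the senescent libraries. In the immortalized ones they stood at 0.159, 0.192 and 0.0982 and 0.266, 0.24 and 0.0982 CPM (log2 change -7.44 ± 0.37, adjusted p = 6.2e-06 and log2 change -6.93 ± 0.26, adjusted p = 2.0e-06). CD36, a fatty acid receptor, fell from 16.1, 17.2 and 17.1 to 2.82, 3.59 and 2.7 CPM (log2 change -2.47 ± 0.18, adjusted p = 2.9e-05). FABP3, the heart-type binding protein, rose from 53.4, 51.3 and 51 to 141, 158 and 166 CPM (log2 change 1.58 ± 0.18, adjusted p = 0.000307). PPARG, the adipocyte master regulator, did not pass (log2 change 0.45 ± 0.16, adjusted p = 0.0575).

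Serine and one-carbon genes had the highest median of the 72 roles. Of 15 genes of serine, proline and one-carbon metabolism 10 were higher, all stable calls, and 1 was lower (median 1.02). All 3 enzymes of the serine pathway rose. PHGDH, the first, stood at 330, 335 and 336 CPM in the senescent and at 750, 832 and 890 CPM in the immortalized libraries (log2 change 1.31 ± 0.21, adjusted p = 0.00171). PSAT1 went from 256, 244 and 248 to 545, 558 and 541 CPM (log2 change 1.14 ± 0.10, adjusted p = 6.8e-05), and PSPH from 78.8, 82.4 and 81 to 161, 167 and 163 CPM (log2 change 1.02 ± 0.09, adjusted p = 9.7e-05). SHMT2, which moves the serine carbon into mitochondrial folate, rose from 163, 161 and 170 to 336, 354 and 377 CPM (log2 change 1.11 ± 0.11, adjusted p = 0.000156). ASS1, of arginine synthesis, rose from 10.6, 9.66 and 9.76 to 70.8, 80.1 and 84.7 CPM (log2 change 2.97 ± 0.12, adjusted p = 2.2e-06). Its level in primary libraries was 11, 9.57 and 9.41 CPM. PYCR1, of proline synthesis, rose from 102, 103 and 113 to 293, 345 and 370 CPM (log2 change 1.66 ± 0.27, adjusted p = 0.00215). MTHFD2, the mitochondrial folate enzyme, did not pass (log2 change 0.70 ± 0.25, adjusted p = 0.0614).

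Many of these enzymes are targets of ATF4, the transcription factor of amino acid shortage, and of 22 ATF4 and CHOP targets 10 were higher and 3 lower (median 0.30). INHBE, an inhibin chain, rose from 0.586, 0.227 and 0.356 to 37.8, 38.9 and 42.8 CPM (log2 change 6.64 ± 0.37, adjusted p = 8.8e-06). CHAC1, which degrades glutathione, rose from 9.87, 9.52 and 10.3 to 37.3, 39 and 43.3 CPM (log2 change 2.01 ± 0.18, adjusted p = 8.5e-05), and ASNS, the asparagine synthetase, from 154, 151 and 159 to 311, 339 and 356 CPM (log2 change 1.12 ± 0.14, adjusted p = 0.000489). GDF15, a stress hormone, fell from 4.48, 5.67 and 5.84 to 0.691, 0.719 and 0.638 CPM (log2 change -2.95 ± 0.27, adjusted p = 0.000104). PPP1R15A, which ends the translation block of the stress response, was lower (log2 change -1.03 ± 0.22, adjusted p = 0.00784). Of 19 cytosolic tRNA synthetase genes 6 were higher and 0 lower. MARS, the methionine enzyme, rose from 183, 183 and 187 to 313, 321 and 326 CPM (log2 change 0.80 ± 0.08, adjusted p = 0.00018), and AARS, the alanine enzyme, did not pass (log2 change 0.23 ± 0.08, adjusted p = 0.0586).

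Chaperones of the endoplasmic reticulum had 7 of 21 genes higher and 2 lower (median 0.20). PDIA3, a disulfide isomerase, stood at 686, 686 and 697 CPM in the senescent and at 1191, 1286 and 1333 CPM in the immortalized libraries (log2 change 0.88 ± 0.10, adjusted p = 0.000319), and HSP90B1, the GRP94 chaperone, rose from 1229, 1243 and 1242 to 1999, 2088 and 2018 CPM (log2 change 0.72 ± 0.10, adjusted p = 0.000671). CANX did not pass (log2 change -0.11 ± 0.14, adjusted p = 0.603). Antioxidant genes were split, 9 higher and 6 lower of 31, with a median of 0.01 that was negative under 2 other scalings. PRDX3 and PRDX4, peroxiredoxins of mitochondria and endoplasmic reticulum, rose (log2 change 1.00 ± 0.10, adjusted p = 0.000174 and log2 change 1.03 ± 0.11, adjusted p = 0.000172). GCLC, which starts glutathione synthesis, fell from 83.1, 83.9 and 83.7 to 32, 30.2 and 26.2 CPM (log2 change -1.50 ± 0.14, adjusted p = 9.2e-05), and GPX3, a secreted glutathione peroxidase, from 8.62, 9.48 and 9.35 to 0.584, 0.671 and 0.491 CPM (log2 change -3.96 ± 0.26, adjusted p = 2.0e-05).

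The matrix changed in makeup more than in direction. Of 124 matrix genes tested 39 were higher and 28 lower. Fibrillar collagen genes summed to 23269 to 24148 CPM in senescent and 37347 to 45154 CPM in immortalized libraries, with 4 of 10 higher and 1 lower (median 0.63). COL1A1 stood at 12987, 13184 and 13023 CPM in the senescent and at 27611, 24591 and 23988 CPM in the immortalized libraries (log2 change 0.96 ± 0.14, adjusted p = 0.00105), against 18856, 24584 and 21738 CPM in primary ones. COL3A1, its partner in skin fibrils, had lower values without passing, 2823, 2875 and 2665 and 1895, 1606 and 1413 CPM (log2 change -0.77 ± 0.28, adjusted p = 0.0653). COL5A3, a minor chain, fell from 48.8, 52.4 and 46.6 to 5.68, 4.84 and 4.76 CPM (log2 change -3.27 ± 0.22, adjusted p = 2.3e-05), and COL2A1, the cartilage collagen, rose from 1.3, 1.95 and 1.69 to 16.3, 14.2 and 16.3 CPM (log2 change 3.24 ± 0.19, adjusted p = 9.6e-06). Of 23 collagen processing and crosslinking genes 11 were higher, 10 of them stable calls, and 3 lower (median 0.66). The crosslinking oxidase gene LOXL1 rose from 278, 289 and 301 to 1052, 1149 and 1269 CPM (log2 change 2.00 ± 0.20, adjusted p = 0.000189), and LOX, of the same family, from 508, 513 and 463 to 1444, 1298 and 1247 CPM (log2 change 1.43 ± 0.19, adjusted p = 0.000766).

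Elastic fibre genes went both ways: 6 of 17 were higher and 4 lower, all stable calls, with a median of 0.06 (-0.10 under scaling by total counts). FBLN5, which organizes elastin on microfibrils, stood at 120, 120 and 125 CPM in the senescent and at 496, 493 and 507 CPM in the immortalized libraries (log2 change 2.04 ± 0.11, adjusted p = 8.6e-06). EMILIN2, an interface glycoprotein, rose from 24.9, 25.4 and 24.7 to 120, 131 and 130 CPM (log2 change 2.35 ± 0.13, adjusted p = 7.8e-06), and FBN2, the fetal fibrillin, from 3.81, 3.81 and 2.85 to 48.7, 34.9 and 29.1 CPM (log2 change 3.43 ± 0.31, adjusted p = 9.5e-05). The binding proteins of latent TGF-beta went apart: LTBP4 rose from 28.4, 28.6 and 29.5 to 110, 108 and 112 CPM (log2 change 1.93 ± 0.09, adjusted p = 3.3e-06), and LTBP3 fell from 239, 248 and 248 to 72.6, 73.1 and 76.3 CPM (log2 change -1.73 ± 0.08, adjusted p = 4.2e-06). EFEMP1, or fibulin 3, fell from 1.63, 1.72 and 1.51 to 0.0531, 0.144 and 0.0982 CPM (log2 change -3.94 ± 0.27, adjusted p = 2.2e-05). Among matricellular genes 8 of 22 were higher and 5 lower. CYR61, a target of the YAP pathway, rose from 528, 521 and 559 to 1567, 1807 and 1967 CPM (log2 change 1.73 ± 0.14, adjusted p = 5.3e-05), while NOV of the same CCN family fell from 128, 127 and 129 to 29.2, 26.5 and 27.4 CPM (log2 change -2.21 ± 0.09, adjusted p = 2.0e-06). TGFBI, an adhesion protein induced by TGF-beta, fell from 26.8, 26.9 and 28.1 to 0.212, 0.431 and 0.0982 CPM (log2 change -6.74 ± 0.43, adjusted p = 1.9e-05), and FN1, the fibronectin gene, from 2539, 2527 and 2315 to 1173, 940 and 909 CPM (log2 change -1.29 ± 0.23, adjusted p = 0.00305).

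**Figure D5:**
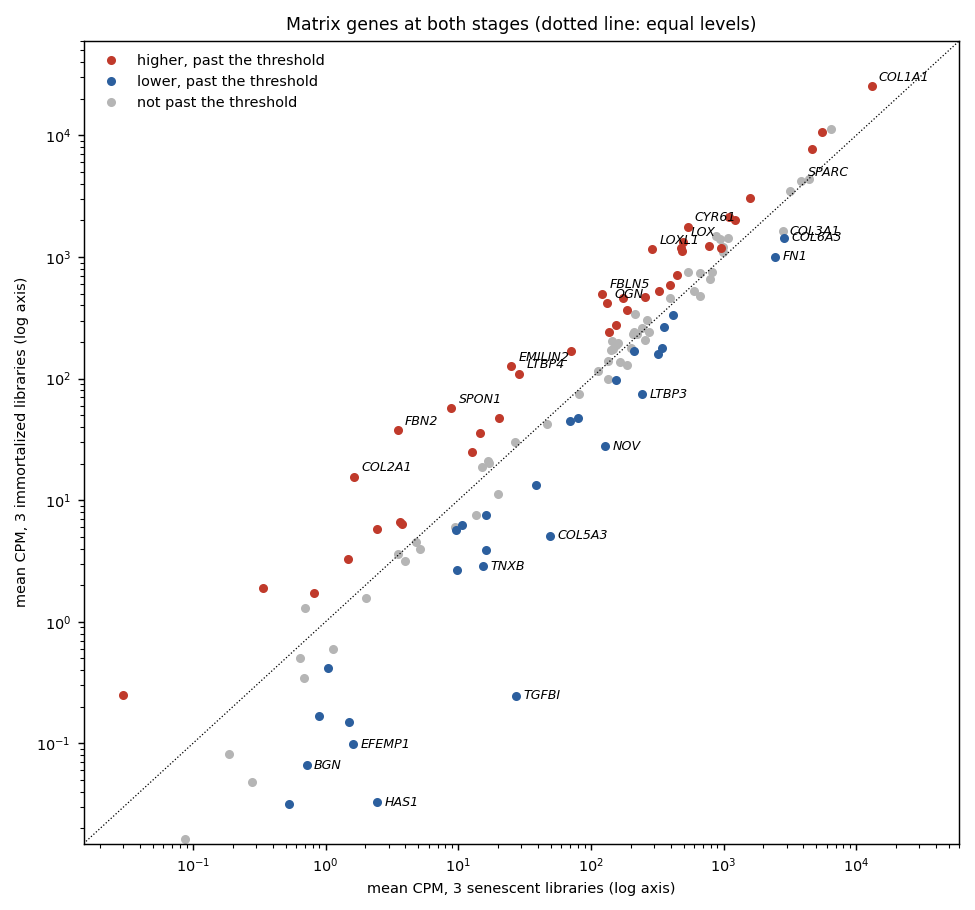
Mean CPM over the 3 senescent (x axis) and the 3 immortalized libraries (y axis) of 124 matrix genes, both on log axes, coloured by call. Points near the line have about equal levels. TGFBI and COL5A3 lie far below the line of equal levels while FBN2 and EMILIN2 lie above it.

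Proteoglycan and hyaluronan genes had 6 of 27 higher and 7 lower (median -0.36). OGN, the mimecan gene, rose from 132, 130 and 135 to 382, 427 and 443 CPM (log2 change 1.66 ± 0.12, adjusted p = 3.3e-05). HAS1, a hyaluronan synthase, held 168 counts over the senescent and 2 over the immortalized libraries, a ratio of 73.7 (20.1 to 614). DCN, the decorin gene, did not pass (log2 change 0.17 ± 0.18, adjusted p = 0.502). Of 14 basement membrane genes 6 were lower and 2 higher (median -0.44), but 1 in each direction was a stable call. These were LAMA3, a laminin chain (log2 change -0.77 ± 0.17, adjusted p = 0.0092), and AGRN, the agrin gene (log2 change 0.87 ± 0.18, adjusted p = 0.00657).

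Adhesion genes were mixed as well, with 5 of 17 cadherin and desmosome genes higher and 5 lower. DSG2 and DSC2, both desmosomal cadherin genes, are neighbours among the tested genes and went opposite ways. DSG2 stood at 76.2, 79.2 and 70.9 CPM in the senescent and at 323, 278 and 253 CPM in the immortalized libraries (log2 change 1.91 ± 0.11, adjusted p = 1.1e-05). DSC2 held 254 counts over the senescent and 0 over the immortalized libraries, at least 74.3-fold lower when its level is set to 3 counts in the group. DSC3, of the same kind, had higher values without passing, 62.4, 59.1 and 52.2 and 146, 102 and 84 CPM (log2 change 0.94 ± 0.47, adjusted p = 0.167). CDH2, the cadherin of fibroblasts, fell from 95.7, 93.2 and 92.1 to 47.4, 45.5 and 40.6 CPM (log2 change -1.07 ± 0.15, adjusted p = 0.000812). Contractile genes had 4 of 25 higher (16%, near the 16.4% over all genes) and 8 lower (32%). ACTN1, an actin crosslinker, rose from 1355, 1348 and 1399 to 2900, 3083 and 3210 CPM (log2 change 1.16 ± 0.10, adjusted p = 5.8e-05). The smooth muscle genes CNN1 and LMOD1 fell, from 113, 109 and 119 to 45.4, 44 and 45.6 CPM (log2 change -1.34 ± 0.19, adjusted p = 0.000906) and from 16.6, 15.7 and 16.6 to 3.98, 3.69 and 4.27 CPM (log2 change -2.03 ± 0.12, adjusted p = 1.2e-05). ACTA2, the smooth muscle actin, was lower (log2 change -1.06 ± 0.21, adjusted p = 0.00552), TPM1, a tropomyosin, was higher (log2 change 0.84 ± 0.15, adjusted p = 0.00294), and TAGLN and MYL9 did not pass (log2 change 0.24 ± 0.19, adjusted p = 0.373 and log2 change 0.41 ± 0.14, adjusted p = 0.0546). CNN1, LMOD1 and ACTA2 are also among the 12 pericyte and smooth muscle markers. Of the 8 of these that were tested 5 were lower and 1, MCAM, was higher (log2 change 0.67 ± 0.17, adjusted p = 0.0146), a call held in 6 of the 9 fits that left out 1 library. Their summed level is given above, and the part of such cells in the result was not tested.

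Signalling genes of the WNT pathway were higher in 10 of 25 cases and lower in 2 (median 0.33), with 5 and 2 stable calls. They included the coreceptor LRP5, from 4.68, 4.9 and 4.77 to 23.2, 17.4 and 16.3 CPM (log2 change 1.99 ± 0.16, adjusted p = 4.7e-05), and the receptor FZD2, from 4.52, 4.63 and 4.37 to 14.7, 15.9 and 15.5 CPM (log2 change 1.77 ± 0.13, adjusted p = 3.4e-05). Antagonists were on both sides: DKK2 rose from 169, 165 and 161 to 589, 536 and 486 CPM (log2 change 1.70 ± 0.22, adjusted p = 0.00065), and SFRP4 fell from 19.5, 20.1 and 21.7 to 2.39, 2.2 and 2.36 CPM (log2 change -3.14 ± 0.15, adjusted p = 3.8e-06). Of the Notch ligands, JAG1 fell from 227, 224 and 214 to 46, 42.1 and 42.6 CPM (log2 change -2.35 ± 0.12, adjusted p = 5.6e-06), and DLL1 rose from 0.795, 0.726 and 0.935 to 5.15, 5.61 and 6.88 CPM (log2 change 2.84 ± 0.19, adjusted p = 1.9e-05). HEY2, a Notch target, fell from 5.48, 6.44 and 4.94 to 0.425, 0.192 and 0.295 CPM (log2 change -4.20 ± 0.29, adjusted p = 2.5e-05). Among BMP and TGF-beta ligands BMP4 rose from 19, 19.4 and 20.9 to 43, 47.1 and 54.1 CPM (log2 change 1.28 ± 0.20, adjusted p = 0.0016) and BMP2 fell from 15.4, 14.3 and 15.8 to 4.62, 5.89 and 4.08 CPM (log2 change -1.64 ± 0.15, adjusted p = 0.000115), and TGFB1 did not pass (log2 change -0.26 ± 0.11, adjusted p = 0.103). Their receptors, antagonists and SMADs had 4 of 28 higher and 9 lower, with SMAD3, a carrier of the TGF-beta signal, lower (log2 change -1.27 ± 0.24, adjusted p = 0.00447).

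Receptor tyrosine kinases had 6 of 23 higher and 8 lower. TYRO3 and MERTK, of 1 family, went opposite ways, from 18.7, 19.5 and 18.9 to 47, 42.6 and 44.8 CPM (log2 change 1.23 ± 0.10, adjusted p = 4.3e-05) and from 1.59, 2.18 and 1.92 to 0.106, 0.144 and 0.0982 CPM (log2 change -3.95 ± 0.32, adjusted p = 5.0e-05). AXL, of the same family, did not pass (log2 change 0.12 ± 0.21, adjusted p = 0.702).

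The respiratory chain had few calls. Of 12 mitochondrially encoded genes 0 passed in edgeR in either direction, and their values overlapped between the stages in all 12. Their summed level was 19170 to 20992 CPM in senescent and 19160 to 24771 CPM in immortalized libraries. Of 56 nuclear genes of oxidative phosphorylation 6 were higher and 1 lower, both shares below the background, with a median log2 change of 0.21. Their summed level was 6734, 6612 and 6961 CPM in senescent and 7560, 8080 and 8547 CPM in immortalized libraries. Primary libraries, which also enter the spread of the fit, were further apart at 14270, 8885 and 10810 CPM. Regulators of the PGC-1 group were lower in 7 of 16 cases and higher in 1, with 3 stable calls. PPARGC1B, the beta coactivator, fell from 16.1, 16.6 and 16.3 to 7.91, 7.52 and 6.78 CPM (log2 change -1.14 ± 0.19, adjusted p = 0.0022), and SIRT3, the mitochondrial deacetylase, from 4.56, 4.81 and 4.81 to 1.22, 1.15 and 0.835 CPM (log2 change -2.14 ± 0.20, adjusted p = 0.000107). Hypoxia genes had 5 of 16 lower and 1 higher. EPAS1, or HIF-2 alpha, fell from 56.9, 57 and 55.4 to 9.72, 10.9 and 7.86 CPM (log2 change -2.57 ± 0.18, adjusted p = 2.5e-05), and HIF1A overlapped and did not pass (log2 change -0.03 ± 0.41, adjusted p = 0.965). Glycolysis was mixed, with 5 of 26 genes higher (19.2%) and 7 lower (26.9%), against 16.4% and 16.1% over all genes. SLC2A1, the glucose transporter, fell from 52.2, 47.2 and 55.5 to 26.4, 26.4 and 29 CPM (log2 change -0.92 ± 0.12, adjusted p = 0.000713), and LDHB rose from 382, 369 and 390 to 607, 654 and 681 CPM (log2 change 0.77 ± 0.12, adjusted p = 0.00143). Ribosome biogenesis had 5 higher and 5 lower of 29, near the background.

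Among genes that keep a record of where a fibroblast came from, HOX genes had few calls and other factors went both ways. The sources give no body site for the cultures. Of 27 HOX genes 3 were higher and 1 lower, below the background, and HOXD13, of the most distal limb, was the stable call (log2 change 1.01 ± 0.18, adjusted p = 0.00343). Of 48 other transcription factors of body position 16 were higher and 9 lower, 12 and 6 of them stable calls. TFAP2B, of limb and neural crest, rose from 0.878, 1.09 and 0.98 to 13, 13.3 and 15.8 CPM (log2 change 3.83 ± 0.18, adjusted p = 2.4e-05), and its relative TFAP2A fell from 32.7, 32.1 and 33.2 to 9.72, 11.7 and 12.8 CPM (log2 change -1.51 ± 0.28, adjusted p = 0.00368). FOXF1, of splanchnic mesoderm, rose from 0.92, 0.726 and 1.07 to 12.1, 11 and 14.9 CPM (log2 change 3.80 ± 0.28, adjusted p = 3.9e-05). ZIC1, of dorsal structures, had 0 counts over the senescent and 71 over the immortalized libraries, at least 27-fold higher when the senescent level is set to 3 counts in the group. EYA2 held 186 and 1 counts, a ratio of 163 (28.9 to 6484). PRRX1, a marker of limb and skin mesenchyme, did not pass (log2 change -0.36 ± 0.18, adjusted p = 0.156). Imprinted genes had 7 of 16 higher and 3 lower, with a median of 0.14 that turned to -0.03 under scaling by total counts. MEST rose from 4.18, 3.9 and 4.5 to 12.1, 9.87 and 10.6 CPM (log2 change 1.37 ± 0.15, adjusted p = 0.00027), and GRB10 fell from 115, 115 and 113 to 86.9, 79.2 and 81 CPM (log2 change -0.47 ± 0.10, adjusted p = 0.00689).

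Among the 12 higher genes with the largest change, beside those above, LAMP5, a membrane protein of neurons and dendritic cells, rose from 2.3, 2.18 and 1.83 to 28.3, 28.6 and 31 CPM (log2 change 3.80 ± 0.16, adjusted p = 2.6e-06). GRIA3, a glutamate receptor subunit, rose from 2.34, 2.22 and 1.74 to 34.4, 28.6 and 25.3 CPM (log2 change 3.80 ± 0.25, adjusted p = 2.0e-05). Of 13 neuronal markers 12 were found, 3 were tested and 2 were higher, and the 12 summed to 37 to 39.6 CPM in senescent and 73.7 to 80.3 CPM in immortalized libraries. Most of this sum came from the 2 higher ones. TUBB3 went from a mean of 36 to 58.9 CPM, with 25.7 CPM in primary libraries, and RTN1 from 0.974 to 18.1 CPM. STMN2, with 7 and 1 counts, did not pass (log2 change -2.25 ± 0.81, adjusted p = 0.0948). The part of neuron-like cells in these values was not tested. Among the 12 lower genes, TRPC4, a cation channel, held 1045 counts over the senescent and 1 over the immortalized libraries, a ratio of 917 (164 to 36269). SLC32A1, a vesicular GABA transporter, held 2051 and 3 counts, a ratio of 600 (205 to 2913). MXRA5, a matrix remodelling gene, fell from 25.1, 24.1 and 22.7 to 0.212, 0.0479 and 0.246 CPM (log2 change -7.11 ± 0.77, adjusted p = 0.000254), and ALDH1A3, which makes retinoic acid, from 21.5, 22.1 and 21.5 to 0.266, 0.431 and 0.344 CPM (log2 change -5.93 ± 0.68, adjusted p = 0.000343).

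Some list counts drew on genes that share a chromosome. Placed by gene order, 10984 tested genes fell into 30 groups, 1 per chromosome, named here by their first and last gene. In the group from PPFIA4 to TNNT2 38.5% of genes were lower and 4.14% higher, and in the group from MRPS24 to KLF15 46.7% were higher and 5.92% lower. Their medians were -0.52 and 0.50. Without the genes of these groups and of RHOU to COG2, MCC to B2M and MAGEL2 to TMEM121, higher spindle genes went from 8 of 34 to 4 of 27. That share was below the 16.4% higher over all genes. Repair genes went from 11 of 38 higher to 6 of 30, with 6 lower in both counts. Sterol enzymes stayed at 13 higher, of 19, chemokines at 8 lower, of 11, and serine genes stood at 8 higher of 13. Other counts shrank. Higher TGF-beta and BMP ligands went from 2 of 9 to 0 of 6, and higher basement membrane genes from 2 of 14 to 0 of 8. Higher contractile genes went from 4 of 25 to 2 of 21, and lower PGC-1 regulators from 7 of 16 to 4 of 11. The 1 higher chemokine was lost too. CXCL12, BMP4 and AGRN thus lie on these chromosomes.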

How the data were processed

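RNA-seq of cultured bovine fibroblasts was compared over the 9 Simmental-like libraries, 3 per stage. The authors deposited a merged gene table of expected counts, estimated by salmon per the file's name, and build UMD3.1 is named per the submitters' processing notes; the labels and headers used here give no trimming, strand setting or salmon version. Of the values of a library 6.3 to 7.18% were not whole, and all were rounded. Genes were filtered by edgeR's filterByExpr over the stages and scaled by TMM, and the 3 stages were fitted together without covariates. The contrast immortalized minus senescent was tested by edgeR's robust quasi-likelihood test with Benjamini-Hochberg adjustment over all 13099 genes. SE is the absolute log2 change over the root of F. CPM is not corrected for gene length, so levels of different genes are not compared. The 9 libraries held 18215984 to 23197201 counts. Intervals and floors cover counting error only.

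Members and gene lists were chosen with earlier results of these data known. Of each list the text names up to 4 called genes per direction with the largest change and up to 2 not called with the most CPM, beside the 12 genes per direction with the largest change at 10 CPM or more and a few genes set by name. Genes that complete a pathway or family or adjoin a named gene, such as CXCL3, CCL5, NFKB1, MMP2, PSAT1, PSPH, SHMT2, SQLE, LSS, CYP51A1, JUNB, FOSL1, DUSP6, SPRY4, IL36A, AREG, ACTA2 and DSC3, were chosen after their values were seen. So were the immune and neuronal markers given beside the called ones. Called genes named in the text are stable calls unless it says otherwise. Some listed genes are not reported here by name. For 337 symbols carried by several identifiers the one with most counts was used. Gene order came from the chromosome and start position of genes in a RefSeq table of another assembly, and distances between genes were not used. The alternatives were other scalings, filters, tools and sets of libraries. R 4.3.3, edgeR 4.0.16, limma 3.58.1, DESeq2 1.42.0 and Python 3.11.15 were used.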

Additional observations from a re-analysis of the deposited data

How the results depend on the processing

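Against 4249 called genes (2146 higher and 2103 lower) and 598 called list members, a fit of the 6 senescent and immortalized libraries alone called 8600 genes (4212 higher, 4388 lower) and 984 members, and the test against a 2-fold minimum called 888 genes (320 higher, 568 lower) and 152 members. Leaving out each library in turn gave 2888 to 7793 genes, 1406 to 3814 higher and 1432 to 3979 lower, and 437 to 899 members. The highest values came without primary library 1, and the lowest number of higher genes without senescent library 2. With the replicate number as a block 3466 genes and 519 members were called, and 81.1% of the calls were kept. Deviations of same-numbered senescent and immortalized libraries correlated at 0.11, -0.09 and 0.17, so the numbers were not taken to pair the libraries. With senescent libraries 1 and 2 summed, 68.9% of the calls were kept. The other scalings, filters and tools stayed within 1.5 times of these counts: 4203 to 4252 genes under other scalings, 5069 by DESeq2, 4485 by limma-voom, 4247 without a filter and 3271 at 5 CPM. No called gene changed sign in any of these settings. Genes near 3 counts per library could not be compared at this depth. A search of promoter motifs on 1 or both strands was not run, since no promoter sequences were used here.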

Other observations

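Changed genes also stood side by side in the gene order. Among the tested genes placed by order there were 34 runs of at least 3 neighbours that all passed in 1 direction with an absolute log2 change of at least 1, 25 of them lower and 9 higher in immortalized libraries, with 110 genes in all. Over all 13099 tested genes, 1118 lower and 772 higher ones passed with a change of that size. The runs were found by looking through the data, and no test was made of how many runs a random order would hold. The longest run was lower and went from SYT14 to CAMK1G. Of its 6 genes, HSD11B1, which regenerates active glucocorticoid, had a log2 change of -6.71, and G0S2, an inhibitor of fat breakdown, one of -3.12. A run of 4 lower genes went from SERPINB5 to SERPINB10, in a cluster of related serine protease inhibitors (median -3.26), where reads may be shared among similar copies. The run of 5 genes from SCN3A to IFIH1 was lower too (median -1.75), and it ends with the RNA sensor named among the lower innate genes.

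The longest higher run went from SHF to SORD (5 genes, median 2.51). It held the oxidase genes DUOX1 and DUOX2, which make hydrogen peroxide at the cell membrane, and DUOXA1, which is needed to bring such an enzyme to the surface, with log2 changes of 3.11, 2.51 and 3.38.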
